A study of Rattus norvegicus with 325 samples.

Results

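The genes described here are the ligands and receptors of axon guidance: netrins with their Unc5 receptors, slits with their Robo receptors, semaphorins with neuropilins and plexins, and ephrins with Eph receptors. Members were all gene symbols of the count tables that begin with the family names of these proteins, and lines of one symbol were summed. The rule found 61 members among 17315 symbols. Of these 2, Unc50 and Unc5cl, share the letters of the Unc5 family but are not guidance genes. The members were followed in 4 muscles of male Sprague Dawley rats, the diaphragm, the gastrocnemius, the soleus and the tibialis anterior, the youngest at 6 and 9 months of age and the others at 12, 18, 21, 24 or 27 months. The rats carried no genetic or drug treatment in the labels, came from one supplier, and were outbred animals. RNA of whole muscle was sequenced, so nerve, vessel and connective tissue were included, and fewer cells of a type cannot be told apart from less RNA per cell. Each group of a muscle and an age held 9 to 13 libraries, 325 in all.

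Guidance proteins steer growing axons by attraction or repulsion. A ligand on or from one cell binds a receptor on another and reshapes the cytoskeleton through small GTPases. In muscle the same families act after development too, at the neuromuscular junction, in vessels and in muscle stem cells. Sema3a, for example, is a secreted repellent of motor axons that muscle stem cells and terminal Schwann cells can make, and Nrp1 is its receptor and a co-receptor for vascular endothelial growth factor.

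The libraries held about 17555300 to 85316300 counts (median 31879700), of which the members took a median of 0.126% (range 0.103 to 0.192). With these depths a count filter left 55 members for the diaphragm, 52 for the gastrocnemius, 56 for the soleus and 51 for the tibialis anterior. Of the 61, 51 passed in all 4 muscles, and 5 passed in none (Epha5, Epha10, Efnb3, Ntn3 and Robo3). Levels are CPM, the counts of a gene relative to the size of its library, under one scaling of all libraries, and changes are log2 fold changes with their standard error (SE) from a fit of each muscle. A member was called when its change passed 1.5-fold with a Benjamini-Hochberg adjusted p under 0.05 in limma-voom. Since all tissues of an age were taken on a single day, effects of age and of that day cannot be told apart. The running numbers of the labels fall in 3 series. The gastrocnemius libraries make up the first, and the 12-month libraries of the other muscles most of the third, so series and group cannot be told apart there, while 6 and 27 months of a muscle share a series. Within a muscle each library came from its own animal according to the study, while the labels do not say which muscles came from the same animal, and fits across muscles took all libraries as separate. Myh7, the slow myosin, had medians of 47500 CPM for the soleus and 2200 for the tibialis anterior, and Myh4, a fast myosin, had 14.2 and 77700, as their labels say.

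At 27 against 6 months, 30 members were called in at least 1 muscle and 17 in 2 or more. The tibialis anterior had the most, with 20 of 51 (12 higher and 8 lower), where 27.6% of all genes tested were called (17.2% higher, 10.4% lower). The gastrocnemius had 15 calls among 52, with 10 higher and 5 lower, beside 22.8% of all genes (15.1% higher, 7.76% lower). The soleus had 10 of 56, 8 higher and 2 lower, beside 15% of all genes (9.21% higher, 5.78% lower). In the diaphragm 7 of 55 were called, 2 higher and 5 lower, where the share of all genes was 7.52% (3.27% higher, 4.25% lower). The median change of the members was -0.06, -0.02, 0.08 and 0.05 in the diaphragm, the gastrocnemius, the soleus and the tibialis anterior, beside 0.00, 0.04, 0.02 and 0.02 for all genes (log2). A score of each library, weighted by the genes that varied most within ages in another muscle (members left out), was tried as a covariate, and it was not held apart from age. With it, 2 of the 15 calls of the gastrocnemius (Sema5a and Sema7a) and 2 of the 7 of the diaphragm (Nrp1 and Unc5c) were made again, and Ephb2 and Sema7a were called in the diaphragm in addition. The soleus kept 10 of its 10 calls, with Sema3e in addition, and the tibialis anterior 18 of its 20. The share of all genes called with this score was not computed, so no result about the members is read from these counts. In the gastrocnemius the changes of Ephb3, Slit2 and Unc5a were then 0.07, 0.11 and -0.83 with no call, and that of Sema3a was -0.70. No test of the families as a whole was made, and what follows is about single members. When libraries were scaled by their total counts, the median of all genes rose by 0.28 for the gastrocnemius, 0.15 for the soleus and 0.32 for the tibialis anterior, and called members were then higher in 85.7%, 90.9% and 84.6% of cases, compared with 66.7%, 80.0% and 60.0%. No called change of a member described below turned its direction with that scaling.

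**Figure D1:**
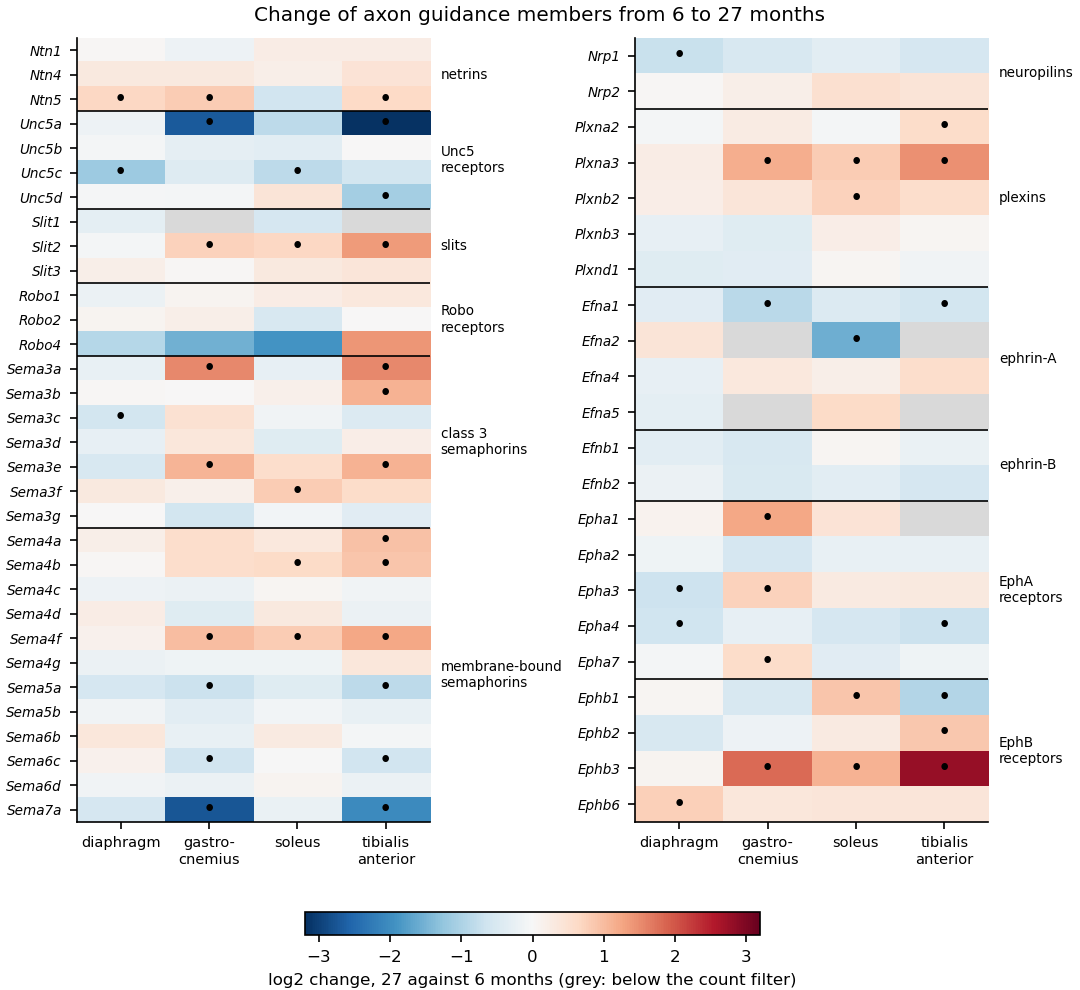
Log2 change from 6 to 27 months (colour) of the guidance members that passed the count filter in at least 1 muscle, ordered by family, in the 4 muscles (columns). Dots mark called changes, and grey marks a muscle where the member did not pass the filter. The deepest blue fields are Unc5a and Sema7a in the gastrocnemius and tibialis anterior, and the deepest red are Ephb3 in the same muscles.

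The members Ephb3, Plxna3, Slit2 and Sema4f rose in all 3 limb muscles and were not called in the diaphragm. Ephb3 is a receptor tyrosine kinase for ephrin-B ligands. Its level in the tibialis anterior ran from 1.27 to 2.93 CPM at 6 months (median 1.75) and from 4.60 to 27.1 at 27 months (median 14.1). The gastrocnemius went from a median of 2.68 (1.93 to 3.48) to 10.1 (3.77 to 17.0), and the soleus from 3.97 (2.47 to 5.58) to 8.78 (4.17 to 14.6). All libraries of 27 months lay above all of 6 months in the tibialis anterior and gastrocnemius, while in the soleus the ages overlapped. The changes were 2.78 (SE 0.28, adjusted p 9.39e-15) in the tibialis anterior, 1.81 (SE 0.21, adjusted p 2.87e-11) in the gastrocnemius and 1.12 (SE 0.17, adjusted p 5.91e-08) in the soleus, by limma-voom. The diaphragm had 3.25 CPM at 6 months (2.03 to 5.63) and 4.14 at 27 months (2.24 to 5.67), a change of 0.09 (SE 0.14, adjusted p 0.641).

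Plxna3 codes for a plexin, the signalling part of the receptor for class 3 semaphorins. It rose from 4.19 CPM (3.36 to 4.94) to 12.4 (6.77 to 16.1) in the tibialis anterior, from 4.69 (3.69 to 5.51) to 10.4 (7.52 to 13.7) in the gastrocnemius and from 6.54 (5.04 to 7.44) to 10.4 (8.33 to 16.8) in the soleus. In none of the 3 did libraries of the 2 ages overlap. The changes were 1.47 (SE 0.11, adjusted p 3.82e-20), 1.17 (SE 0.10, adjusted p 4.61e-16) and 0.81 (SE 0.09, adjusted p 1.05e-11) in limma-voom. In the diaphragm the change of Plxna3 was 0.25 (SE 0.08, adjusted p 0.00793), below the fold limit.

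Sema4f, a membrane-bound semaphorin, was low throughout. Its medians were 0.635 and 1.47 CPM at 6 and 27 months in the tibialis anterior, 0.605 and 1.36 in the gastrocnemius and 0.720 and 1.2 in the soleus, and libraries of the 2 ages overlapped in each. The changes in these muscles were 1.25 (SE 0.19), 0.99 (SE 0.17) and 0.82 (SE 0.22), with limma-voom adjusted p of 2.92e-08, 9.36e-07 and 0.00111.

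**Figure D2:**
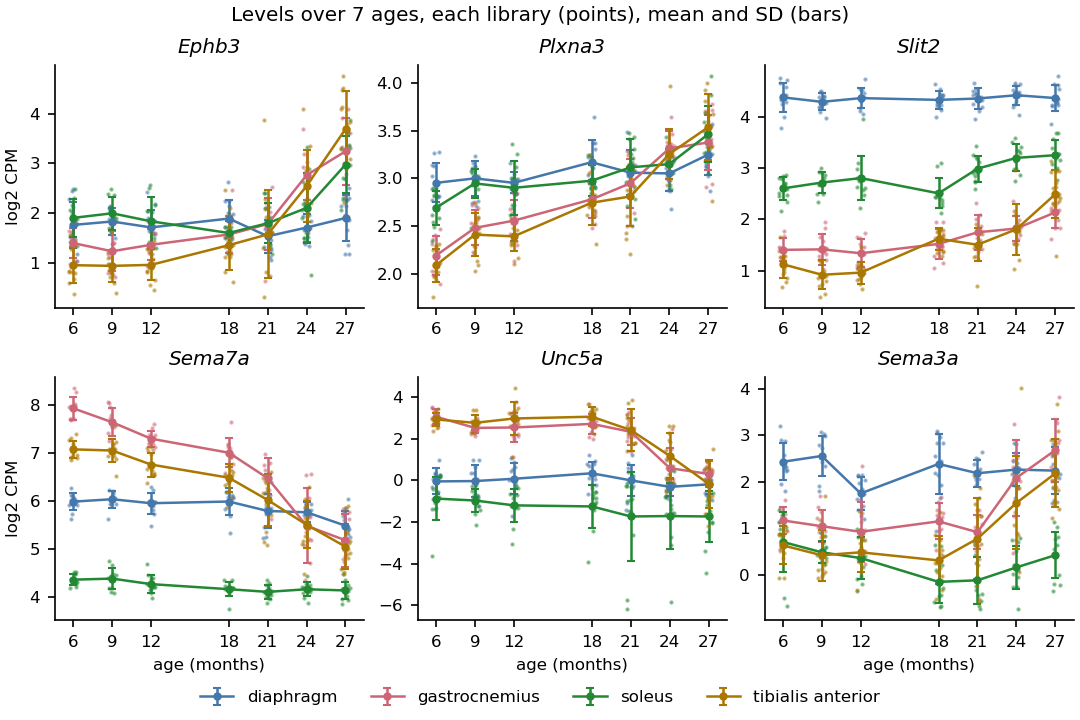
Log2 CPM of 6 members (panels) against age in months. Points are libraries, lines join group means and bars are the SD, with 1 colour for each muscle. In the gastrocnemius and tibialis anterior Ephb3 and Unc5a moved mostly from 24 months on and Sema7a was already lower at 21 months (changes of -1.46 and -1.05), while Plxna3 rose more evenly over the ages, and Slit2 stayed highest in the diaphragm at all 7 ages.

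The largest called falls were those of Sema7a, a semaphorin tethered to the membrane by a lipid anchor that signals through integrins and plexins, and of Unc5a, a repulsive netrin receptor. Sema7a fell in the gastrocnemius from 250 CPM (205 to 325) to 35.2 (16.9 to 56.9) and in the tibialis anterior from 131 (116 to 168) to 31.0 (22.2 to 59.7). Every library of 27 months was below every library of 6 months in both. The changes were -2.74 (SE 0.18, adjusted p 5.1e-21) and -2.03 (SE 0.15, adjusted p 3.19e-20) in limma-voom. The diaphragm moved from 65.2 CPM (49.6 to 76.7) to 43.4 (31.6 to 65.5), a change of -0.54 (SE 0.10) just inside the fold limit, and the soleus from 20.2 (18.3 to 23.1) to 17.6 (14.4 to 22.4), a change of -0.20 (SE 0.07).

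Unc5a fell in the same 2 muscles. It had 7.43 CPM (5.09 to 10.7) in the tibialis anterior at 6 months and 1.01 (0.201 to 2.86) at 27 months, and 8.61 (5.94 to 11.7) and 1.39 (0.513 to 1.87) in the gastrocnemius. The ages did not overlap in either. The changes were -3.15 (SE 0.46, adjusted p 3.41e-09) and -2.68 (SE 0.29, adjusted p 2.32e-12) by limma-voom. In the diaphragm Unc5a had 1.09 CPM at 6 months and 0.964 at 27 months (change -0.16, SE 0.25), and in the soleus 0.551 and 0.388 (change -0.84, SE 0.47, adjusted p 0.123).

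The promoters of 4 members are shown, 2 that rose in the limb muscles (Ephb3 and Plxna3) and the 2 with the largest falls (Sema7a and Unc5a), and they were picked with their values in view. They are RefSeq sequences of build GRCr8, from 250 bases before to 50 after the start of the gene, since the counts themselves rest on an older build for which no coordinates are given. Ephb3 lies at chr11:93363726-93364025 on the minus strand, Plxna3 at chrX:157266857-157267156 on the plus strand, Sema7a at chr8:67244068-67244367 on the plus strand and Unc5a at chr17:9675614-9675913 on the minus strand. Capitals mark matches to the E-box CANNTG, which includes the form CAGCTG bound by myogenic factors, and to the Runx motif TGTGGT, on either strand.
Ephb3: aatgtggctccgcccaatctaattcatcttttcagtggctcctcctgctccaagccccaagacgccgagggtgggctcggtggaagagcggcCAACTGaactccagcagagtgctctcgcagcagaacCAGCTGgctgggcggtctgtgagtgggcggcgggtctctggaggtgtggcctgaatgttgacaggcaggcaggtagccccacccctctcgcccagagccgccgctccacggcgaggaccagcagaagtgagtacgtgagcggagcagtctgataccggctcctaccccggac
Plxna3: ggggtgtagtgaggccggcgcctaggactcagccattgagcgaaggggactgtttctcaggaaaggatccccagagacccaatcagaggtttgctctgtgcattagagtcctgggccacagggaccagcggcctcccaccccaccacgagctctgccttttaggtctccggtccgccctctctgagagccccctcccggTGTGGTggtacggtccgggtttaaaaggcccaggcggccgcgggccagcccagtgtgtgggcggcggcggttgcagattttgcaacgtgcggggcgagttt
Sema7a: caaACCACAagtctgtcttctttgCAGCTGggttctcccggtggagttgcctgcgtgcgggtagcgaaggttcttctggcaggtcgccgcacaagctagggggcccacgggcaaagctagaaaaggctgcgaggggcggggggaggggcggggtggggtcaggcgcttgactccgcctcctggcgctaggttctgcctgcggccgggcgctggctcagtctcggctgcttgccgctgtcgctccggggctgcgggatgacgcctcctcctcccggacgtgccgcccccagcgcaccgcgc
Unc5a: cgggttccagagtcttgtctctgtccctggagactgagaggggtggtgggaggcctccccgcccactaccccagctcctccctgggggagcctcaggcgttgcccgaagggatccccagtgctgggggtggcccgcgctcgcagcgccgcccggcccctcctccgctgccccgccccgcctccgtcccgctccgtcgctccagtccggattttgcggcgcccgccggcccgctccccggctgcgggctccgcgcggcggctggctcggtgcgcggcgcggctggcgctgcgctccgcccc
Ephb3 held 2 E-boxes, 1 of them CAGCTG, Sema7a held 1 CAGCTG and 1 Runx motif, Plxna3 held 1 Runx motif, and the window of Unc5a held neither. Of the 61 members 48 had an entry, and of the 30 called at 27 months 22 had. Among these 22 promoters, 12 (54.5%) held CANNTG, 5 (22.7%) CAGCTG and 2 (9.1%) TGTGGT, where the shares of all 33469 promoters of the table, of every gene type, were 72.1%, 15.1% and 17.3%. The GC share of the 4 windows was 63.7%, 64%, 69.7% and 77.7% in the order printed.

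Netrins guide axons over distance, and Ntn4 and Ntn1 also lie in basement membranes. Neither passed the fold limit in a muscle. Ntn4 changed by 0.31 (SE 0.05), 0.31 (SE 0.10), 0.19 (SE 0.08) and 0.43 (SE 0.09) in the diaphragm, the gastrocnemius, the soleus and the tibialis anterior, and Ntn1 by 0.03, -0.16, 0.24 and 0.25. Ntn5, a little studied secreted netrin, was called higher in 3 muscles, by 0.65 (SE 0.24) in the diaphragm, 0.82 (SE 0.22) in the gastrocnemius and 0.63 (SE 0.23) in the tibialis anterior. The call in the diaphragm was not made by edgeR (0.54, adjusted p 0.0547), DESeq2 (0.56), with quality weights (0.56) or with the library score (0.61, adjusted p 0.0626), and with that score the calls of the gastrocnemius (0.45) and tibialis anterior (0.42) were lost too. The median of Ntn5 was at most 0.563 CPM in the groups of 6 and 27 months, and libraries of the ages overlapped in each muscle. Ntn3 did not pass the filter.

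Among the other Unc5 receptors, Unc5b, which is also found on endothelium, was not called (changes from -0.35 to 0.02). Unc5c was called lower in the diaphragm and soleus. In the diaphragm it ran from 1.18 to 8.76 CPM at 6 months (median 4.60) and from 0.833 to 3.29 at 27 months (median 2.11), a change of -1.16 (SE 0.32, adjusted p 0.00203). In the soleus it went from 2.67 CPM (0.839 to 4.27) to 1.83 (0.053 to 3.10), a change of -0.83 (SE 0.33, adjusted p 0.0277), a call that 5 of 9 other fits did not make. Unc5c varied widely between libraries of 1 age, and both comparisons overlapped. Its changes were larger at 9 months, -1.58 (SE 0.37) in the diaphragm, where it was called, and -1.06 (SE 0.35) in the soleus. At 12 months they were -0.38 and -0.10, and Unc5c had no trend over the ages in any muscle. Unc5d fell in the tibialis anterior from 0.484 CPM to 0.236 (change -1.09, SE 0.25, adjusted p 6.8e-05).

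Slits repel axons through Robo receptors. Slit2 rose in the limb muscles, from 2.21 CPM (1.59 to 3.15) to 5.45 (2.42 to 8.80) in the tibialis anterior, from 2.69 (1.91 to 3.38) to 4.51 (3.06 to 6.20) in the gastrocnemius and from 6.23 (4.47 to 7.31) to 9.40 (6.76 to 12.8) in the soleus. The ages overlapped in all 3. The changes were 1.37 (SE 0.14, adjusted p 3.98e-14), 0.73 (SE 0.12, adjusted p 4.35e-07) and 0.66 (SE 0.11, adjusted p 8.26e-07) in limma-voom. In the diaphragm Slit2 had 20.8 CPM (13.7 to 26.9) and 19.9 (14.5 to 27.5), a change of -0.05 (SE 0.09). Slit3 was not called, with changes from 0.05 to 0.39.

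No Robo receptor was called at 27 months. Robo1 changed by -0.19 to 0.34. Robo2 in the soleus fell earlier: its median was 7.61 CPM at 6 months and 4.41, 4.39, 4.47 and 4.39 at 18, 21, 24 and 27 months. It was called at 18, 21 and 24 months (changes -0.76, -0.80 and -0.69), and the change of -0.52 at 27 months (SE 0.14, adjusted p 0.00163) lay below the fold limit, with 1 library of 14.9 CPM above all of 6 months. Robo4, a receptor of endothelium, had a count in 219 of 325 libraries and none in the others, on 2 lines of the table, and no result is drawn from it.

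Class 3 semaphorins are secreted. Sema3a rose in the gastrocnemius from 2.22 CPM (1.40 to 3.01) to 7.13 (2.83 to 14.2) and in the tibialis anterior from 1.62 (0.930 to 2.22) to 3.89 (2.33 to 12.7). The ages did not overlap in the tibialis anterior and overlapped in the gastrocnemius. The changes were 1.54 (SE 0.24, adjusted p 1.27e-07) and 1.55 (SE 0.28, adjusted p 1.21e-06) by limma-voom. In the soleus Sema3a had 1.81 CPM at 6 months, 0.835 at 18 months, 0.809 at 21 months and 1.40 at 27 months. It was called lower there at 18 (change -0.86) and 21 months (change -0.80) and not at 27 months (change -0.26). The diaphragm held 5.02 CPM (3.44 to 9.21) and 4.85 (2.89 to 7.38).

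Sema3e, whose receptor is Plxnd1, rose by 1.09 (SE 0.23) in the gastrocnemius and 1.12 (SE 0.25) in the tibialis anterior, from medians of 0.405 and 0.523 CPM to 0.946 and 1.16. Sema3b was called in the tibialis anterior, from 6.14 CPM (5.00 to 7.26) to 13.7 (7.58 to 18.6) with no overlap (change 1.12, SE 0.11, adjusted p 5.69e-15). Its changes in the other muscles were 0.04 (diaphragm), 0.02 (gastrocnemius) and 0.16 (soleus). Sema3f, a repellent that binds Nrp2, was called in the soleus, from 21.2 CPM (17.2 to 26.3) to 35.6 (24.5 to 54.1), a change of 0.80 (SE 0.09, adjusted p 1.19e-12), and changed by 0.32, 0.15 and 0.58 in the diaphragm, gastrocnemius and tibialis anterior. Sema3d and Sema3g were not called at this age.

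Among membrane-bound semaphorins, Sema5a was called lower in the gastrocnemius (-0.70, SE 0.10) and tibialis anterior (-0.83, SE 0.08), with diaphragm and soleus at -0.55 and -0.39. In the tibialis anterior its 27.0 CPM (23.4 to 29.6) became 15 (12.4 to 18.3) with no overlap. Sema6c was called lower in the same 2 muscles (-0.62 and -0.61), from medians of 175 and 149 CPM to 115 and 103. Sema4a (0.93, SE 0.16) was called higher in the tibialis anterior, and Sema4b in the tibialis anterior (0.88, SE 0.09) and soleus (0.62, SE 0.09). In the gastrocnemius Sema4a changed by 0.55 (SE 0.12) and Sema4b by 0.56 (SE 0.08, no overlap), both under the fold limit. Sema4c, Sema4d, Sema4g, Sema5b, Sema6b and Sema6d were not called at 27 months, with changes from -0.38 to 0.35.

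Neuropilins bind class 3 semaphorins and growth factors. Nrp1 was called in the diaphragm, where 109 CPM (94.6 to 122) became 66.6 (58.7 to 79.4) with no overlap (change -0.72, SE 0.05, adjusted p 1.92e-18 in limma-voom). It was also lower in the gastrocnemius (-0.51, SE 0.06) and tibialis anterior (-0.54, SE 0.06), again with no overlap, and in the soleus (-0.34, SE 0.05), each under the fold limit. Nrp2 went the other way, by 0.05, 0.19, 0.52 and 0.41 in the diaphragm, the gastrocnemius, the soleus and the tibialis anterior, and was not called. Of the other plexins, Plxnb2 was called in the soleus, from 96.5 CPM (89.4 to 106) to 162 (129 to 177) with no overlap (change 0.74, SE 0.04, adjusted p 6.45e-25). Under the fold limit, Plxnb2 also rose in the tibialis anterior (0.55, SE 0.06, no overlap), the gastrocnemius (0.39, SE 0.08) and the diaphragm (0.21, SE 0.06). Plxna2 was called in the tibialis anterior (0.59, SE 0.06). Plxnb3 and Plxnd1 were not called.

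Ephrins are held at the cell surface and bind Eph receptors on a neighbouring cell. Efna1 was lower in the gastrocnemius, from 21.5 CPM (19.2 to 26.5) to 11.1 (8.98 to 15), and in the tibialis anterior, from 20.1 (18.6 to 28.1) to 13.4 (10.4 to 18.6), with no overlap in either. The changes were -0.87 (SE 0.09, adjusted p 1.87e-13) and -0.59 (SE 0.09, adjusted p 5.76e-09) in limma-voom, and the second lay so near the fold limit that 5 of 9 other fits placed it inside. Efnb1 and Efnb2 were not called, with changes from -0.54 to 0.06. Efna2 was called lower in the soleus (-1.56, SE 0.52), at medians of 0.178 and 0.0878 CPM.

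Epha4, a receptor for ephrins of both classes, was called lower in the diaphragm, from 14.5 CPM (11.6 to 16.1) to 9.51 (7.63 to 11.2), and in the tibialis anterior, from 9.56 (8.79 to 11.4) to 6.09 (4.45 to 8.36), with no overlap. The changes were -0.64 (SE 0.09, adjusted p 3.07e-09) and -0.68 (SE 0.08, adjusted p 8.04e-12). The soleus (-0.53, SE 0.07) and gastrocnemius (-0.27, SE 0.10) were not called. Epha3 was called in opposite directions, lower in the diaphragm (-0.65, SE 0.16, adjusted p 0.000689) and higher in the gastrocnemius (0.73, SE 0.33, adjusted p 0.0489). The second was at 0.263 and 0.384 CPM, and 7 of 9 other fits did not call it.

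Ephb1 was also called in opposite directions. It rose in the soleus from 0.648 CPM (0.213 to 1.06) to 1.05 (0.323 to 2.16) and fell in the tibialis anterior from 2.27 (1.72 to 2.81) to 1.2 (0.555 to 2.04), with changes of 0.90 (SE 0.29, adjusted p 0.00718) and -0.94 (SE 0.16, adjusted p 1.83e-07) and overlap in both. Ephb6, a family member without kinase activity, was called only in the diaphragm, where 1.41 CPM (0.823 to 2.29) became 2.64 (1.14 to 3.39) (0.77, SE 0.15, adjusted p 1.48e-05), and changed by 0.37 to 0.40 in the limb muscles. Ephb2 was called higher in the tibialis anterior (0.87, SE 0.18), and Epha1 (1.25, SE 0.41) and Epha7 (0.60, SE 0.14) in the gastrocnemius. Epha2 was not called at this age.

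**Figure D3:**
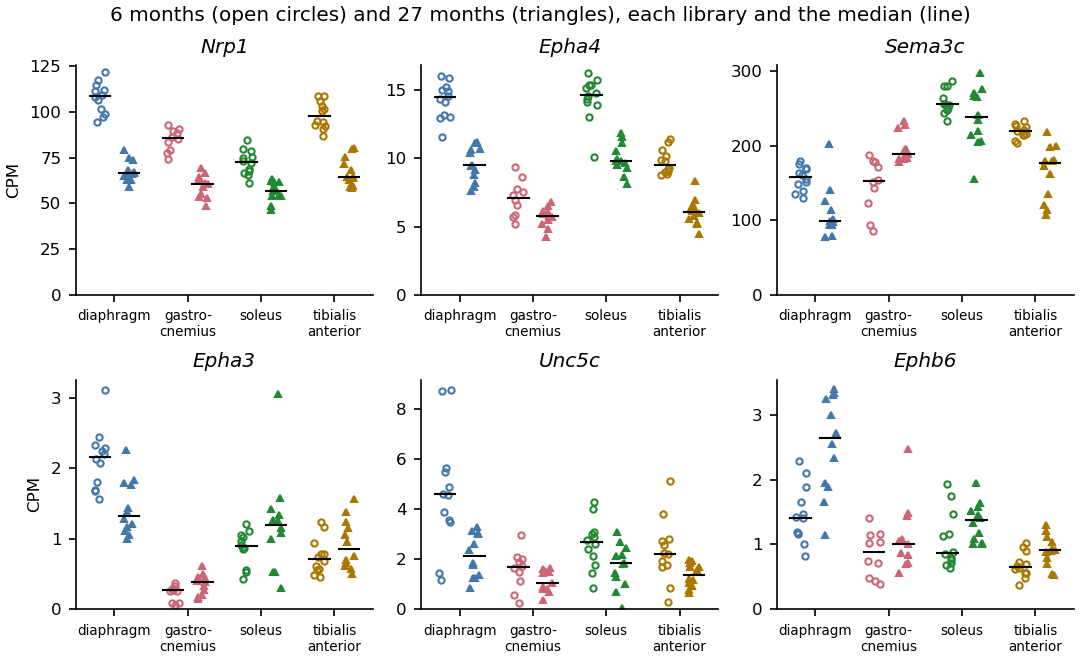
CPM of 6 members called in the diaphragm at 27 months, in each library of 6 months (open circles) and 27 months (triangles) of the 4 muscles, with medians as lines. Nrp1 and Epha4 separate the 2 ages in the diaphragm, while Sema3c, Epha3, Unc5c and Ephb6 overlap.

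The 7 members called in the diaphragm at 27 months were Epha3, Epha4, Nrp1, Sema3c and Unc5c lower and Ephb6 and Ntn5 higher. Nrp1, Epha4 and Sema3c did not fall evenly. Their changes were -0.43, -0.33 and -0.22 at 18 months and -0.17, -0.11 and -0.04 at 24 months. Sema3c, a secreted guide of vessels and neural crest cells, went from 158 CPM (130 to 179) to 98.5 (77.5 to 202), with 1 library above all of 6 months (change -0.60, SE 0.10, adjusted p 4.47e-07). Groups of 6 and 27 months did not overlap for 2 of 55 members in the diaphragm (2.85% of all genes), 9 of 52 in the gastrocnemius (14.1%), 2 of 56 in the soleus (5.64%) and 14 of 51 in the tibialis anterior (20.2%).

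Before 18 months members were rarely called. At 9 months 1 member was called in the diaphragm, Unc5c, and none in the other muscles, where 0.108%, 0.143%, 0.123% and 0.00851% of all genes were called in the diaphragm, the gastrocnemius, the soleus and the tibialis anterior. At 12 months the single call was Sema7a in the gastrocnemius, beside 0.532%, 0.885%, 0.353% and 0.196% of all genes. The counts at 18 months were 1, 1, 2 and 1 (beside 2.25%, 4.32%, 2.84% and 5.45%), and at 21 months 0, 4, 2 and 3 (beside 1.68%, 5.81%, 2.61% and 6.47%). At 24 months they were 1, 14, 3 and 9 (beside 2.68%, 18.8%, 6.51% and 14.5%). The calls thus numbered 1, 1, 5, 9 and 27 over the 4 muscles at these ages.

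In the gastrocnemius 11 of the 14 calls at 24 months were lower. The share of all genes called there, 18.8%, was not split by direction, so no result about the members is read from this split. They included Efna1, Efnb1, Epha2, Nrp1, Plxnb3, Sema3g, Sema5a, Sema6b and Sema6c beside Sema7a and Unc5a, and the 3 higher were Ephb3, Plxna3 and Sema3a. Sema7a had gone down stepwise there, with medians of 250, 192, 159, 129, 95.0, 37.0 and 35.2 CPM over the 7 ages. Its changes were -0.93 at 18 months, -1.46 at 21 months and -2.44 at 24 months. Unc5a held at 5.72 to 6.85 CPM from 9 to 18 months and then had 4.41, 1.43 and 1.39 CPM. Ephb3 was at 2.33 to 3.33 CPM up to 21 months and reached 6.45 at 24 months. The tibialis anterior followed with 1.75 to 2.48 CPM of Ephb3 up to 21 months, 5.70 at 24 months and 14.1 at 27 months.

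A member with a call at any age and a trend of its log2 CPM over the ages is named age-related. The diaphragm had 5 (1 rising, 4 falling), the gastrocnemius 17 (7 and 10), the soleus 8 (7 and 1) and the tibialis anterior 20 (12 and 8). The shares of all genes, rising and falling together, were 6.71%, 23.4%, 12.6% and 26.7%, and they were not split by direction. Late trends, with a fitted inflection after 21 months, were found in both fast muscles for 6 members. Ephb3, Sema3a and Sema4f rose, and Efna1, Sema7a and Unc5a fell. For Sema4f and Sema7a the fitted inflection was 27 months in both, the end of the range searched, so no turning point was located. Sema7a was already lower at 21 months (changes of -1.46 in the gastrocnemius and -1.05 in the tibialis anterior). In the diaphragm Epha4, Nrp1 and Sema3c were classed late and falling, also with a fitted inflection of 27 months. Plxna3 rose linearly in the 3 limb muscles. Slit2 was classed linear in the gastrocnemius, mid in the soleus (inflection at 20.75 months) and late in the tibialis anterior (27 months, again the end of the range). Robo2 was classed linear and falling in the soleus, though its changes were -0.76, -0.80, -0.69 and -0.52 at 18, 21, 24 and 27 months.

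The 4 muscles differed in their guidance genes at 6 months already. Of 59 members tested in a joint fit, 32 differed between diaphragm and gastrocnemius (37.3% of all genes), 35 between diaphragm and tibialis anterior (35.1%), 22 between diaphragm and soleus (23.9%), 22 between gastrocnemius and soleus (45.4%), 28 between soleus and tibialis anterior (42.9%) and 9 between gastrocnemius and tibialis anterior (17.3%). Most of the diaphragm's differences were toward higher levels there, 25 of 32, 29 of 35 and 17 of 22 against the gastrocnemius, tibialis anterior and soleus. Of all genes called in these pairs, most were also higher in the diaphragm, 2659 of 4772, 2858 of 4493 and 1753 of 3049. These made up 20.8%, 22.4% and 13.7% of all genes tested.

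Slit2 had the largest of these differences against the tibialis anterior, while Epha3 had it against the gastrocnemius and Ephb1 against the soleus. The diaphragm's Slit2 level of 20.8 CPM (13.7 to 26.9) stood above the soleus with 6.23 (4.47 to 7.31), the gastrocnemius with 2.69 (1.91 to 3.38) and the tibialis anterior with 2.21 (1.59 to 3.15), and neither the diaphragm nor the soleus overlapped another muscle. The log2 differences of the diaphragm were 3.24 (SE 0.14) over the tibialis anterior, 2.97 (SE 0.14) over the gastrocnemius and 1.75 (SE 0.10) over the soleus, while the gastrocnemius and tibialis anterior overlapped. Sema3a, Sema3e, Sema4f, Nrp2, Plxnb3 and Epha3 also had their highest median in the diaphragm and were called against each of the other 3 muscles. The differences of Epha3 were 3.31 (SE 0.29) over the gastrocnemius and 1.53 (SE 0.19) over the tibialis anterior. Ephrin-A5 (Efna5) was higher in the diaphragm by 3.18 (SE 0.48) and 2.82 (SE 0.44) over gastrocnemius and tibialis anterior, where its medians were 0.0994 and 0.107 CPM.

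Unc5a and Sema7a were highest in the fast muscles. Unc5a had 8.61 CPM (5.94 to 11.7) in the gastrocnemius and 7.43 (5.09 to 10.7) in the tibialis anterior, which overlapped, and 1.09 (0.378 to 1.93) in the diaphragm and 0.551 (0.0651 to 1.16) in the soleus, which also overlapped. The log2 differences were 3.93 (SE 0.40) between gastrocnemius and soleus and 3.80 (SE 0.40) between tibialis anterior and soleus. Sema7a ran from the gastrocnemius with 250 CPM (205 to 325) through the tibialis anterior with 131 (116 to 168) and the diaphragm with 65.2 (49.6 to 76.7) to the soleus with 20.2 (18.3 to 23.1), and no neighbours in this order overlapped. Robo2 was highest in the soleus, by 2.38 (SE 0.16) over the diaphragm, and Ntn4 was higher in the soleus than in the tibialis anterior by 1.5 (SE 0.08) and than in the gastrocnemius by 1.41 (SE 0.09).

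**Figure D4:**
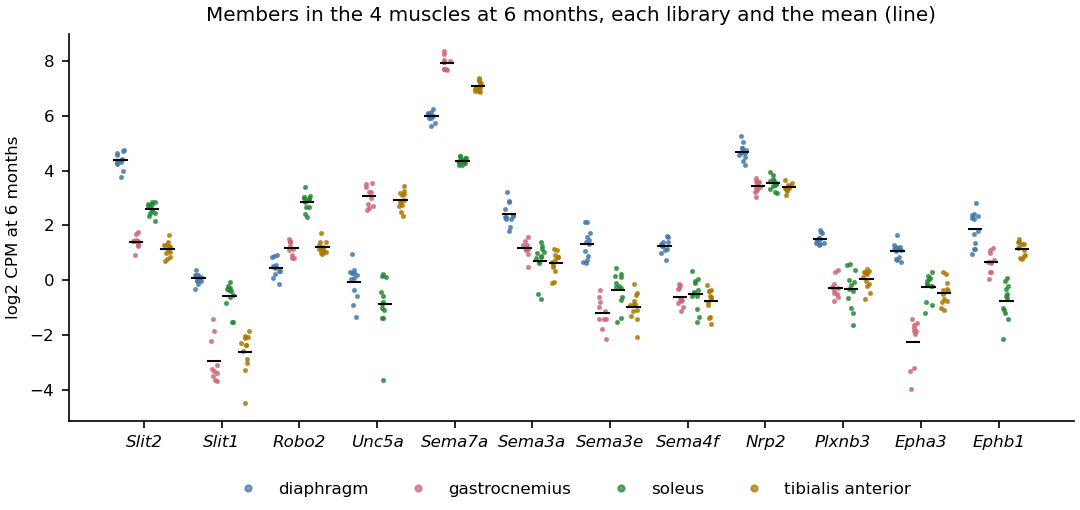
Log2 CPM of 12 members at 6 months in each library of the 4 muscles (colours), with group means as lines. Slit2, Nrp2 and Plxnb3 sit highest in the diaphragm, Robo2 in the soleus, and Unc5a and Sema7a in the gastrocnemius and tibialis anterior.

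By 27 months some of these differences had narrowed. Sema7a was 1.95 (SE 0.13) higher in the gastrocnemius than in the diaphragm at 6 months and -0.30 (SE 0.13) relative to it at 27 months. Unc5a, 3.03 (SE 0.32) higher in the tibialis anterior than in the diaphragm at 6 months, differed by -0.01 (SE 0.43) at 27 months, and the difference in its change was -3.04 (SE 0.54, adjusted p 3.68e-07). Slit2 remained higher in the diaphragm at 27 months, by 1.86 (SE 0.10) over the tibialis anterior and 2.24 (SE 0.11) over the gastrocnemius. Ephb3 differed in its change between all 6 pairs of muscles, with 2.65 (SE 0.31, adjusted p 4.16e-14) between tibialis anterior and diaphragm and 1.68 (SE 0.30, adjusted p 4.18e-07) between tibialis anterior and soleus. Sema3a changed by 1.82 (SE 0.39, adjusted p 3.83e-05) more in the tibialis anterior than in the soleus.

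Counted over members, the change from 6 to 27 months differed for 16 of 59 between diaphragm and gastrocnemius, 10 between diaphragm and soleus and 18 between diaphragm and tibialis anterior (21.6%, 11.9% and 20.3% of all genes). It differed for 14 between gastrocnemius and soleus, 16 between soleus and tibialis anterior and 7 between gastrocnemius and tibialis anterior (14.5%, 15.8% and 7.32%). The 7 of the last pair were Epha7, Ephb2, Ephb3, Sema3b, Sema3c, Sema7a and Slit2. Sema3b was the clearest, with a difference of 1.11 (SE 0.16, adjusted p 3.97e-09) and a call for age in the tibialis anterior. Comparisons of pairs share muscles, so their counts are not independent.

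Partners of these receptors were taken as a list of 46 genes, co-receptors, adhesion partners, and effectors of the cytoskeleton. Of those tested, 11 of 42 rose and 3 fell in the gastrocnemius, beside 15.1% and 7.76% of all genes. In the tibialis anterior 14 of 42 rose and 2 fell (beside 17.2% and 10.4%). In the soleus 6 of 45 rose and none fell (beside 9.21% and 5.78%), and in the diaphragm 2 of 45 rose and 3 fell (beside 3.27% and 4.25%). The medians of the list were 0.25, 0.31, 0.07 and -0.11 in this order. Flrt1, of a membrane protein family that binds Unc5 receptors, led in each muscle, with changes of 4.07 (SE 0.42), 4.97 (SE 0.53), 4.54 (SE 0.78) and 2.11 (SE 0.32). Cntn2, an axonal adhesion molecule, rose by 2.15, 1.59, 2.33 and 0.74. Mical1, an oxidase that takes actin apart downstream of plexins, rose by 2.55 in the tibialis anterior. Enah, an actin regulator, rose by 1.40 in the gastrocnemius, and Crmp1 by 1.99 (SE 0.52) in the soleus. In the diaphragm Dpysl4 was lower, with a change of -1.06 (SE 0.21).

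Muscle fibres that lose their nerve turn on a known set of genes. A list of 10 of them (Chrna1, Chrnd, Chrng, Runx1 and others) rose in all 4 muscles, 10 of 10 in each, and the mean log2 CPM of the list was taken as a denervation score. Among the 27-month libraries it ran from 5.81 to 7.87 in the tibialis anterior, 5.41 to 7.17 in the gastrocnemius, 4.64 to 7.27 in the soleus and 4.03 to 6.29 in the diaphragm. Relations of single members to it were computed within the 27-month libraries of 1 muscle, 214 in all, with permutation p values adjusted over the 214. A Pearson r of 0.8 or more in size was reached by 1.09%, 3.31%, 4.94% and 9.31% of all genes tested in the diaphragm, the gastrocnemius, the soleus and the tibialis anterior and by 1, 2, 4 and 5 members.

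Ephb3 followed the score in the 3 limb muscles. In the tibialis anterior r was 0.868 (n = 12, permutation p 0.00029, adjusted 0.0171) and Spearman's rho 0.762 (permutation p 0.00562, adjusted 0.1), and r was 0.693 without the 2 libraries farthest from the median score. In the soleus r was 0.792 (n = 12, permutation p 0.00018, adjusted 0.0171) and rho 0.874 (permutation p 0.00044, adjusted 0.0235), with 0.720 without the 2. In the gastrocnemius r was 0.852 (n = 11, permutation p 0.00131, adjusted 0.0317) and rho 0.636 (permutation p 0.0395, adjusted 0.273), and without the 2 libraries of lowest score, on which much of it rested, r was 0.467. The diaphragm gave r of 0.548 (n = 12, permutation p 0.0656, adjusted 0.281) and rho of 0.455 (permutation p 0.142, adjusted 0.442).

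Sema7a ran against the score in the tibialis anterior, with r of -0.867 (n = 12, permutation p 0.00058, adjusted 0.0248) and rho of -0.741 (permutation p 0.00759, adjusted 0.125), and with -0.599 without the 2 farthest libraries. Ntn4, which was not called for age, gave r of 0.844 (n = 12, permutation p 0.00083, adjusted 0.0257) and rho of 0.902 (permutation p 0.00013, adjusted 0.0207) there, and 0.838 without the 2. Sema3f in the soleus had r of 0.821 (n = 12, permutation p 0.00023, adjusted 0.0171) and rho of 0.818 (permutation p 0.00191, adjusted 0.0728), and 0.830 without the 2. Unc5a, with r of -0.605 in the tibialis anterior (n = 12, permutation p 0.0366, adjusted 0.231), and Slit2, with 0.678 (n = 12, permutation p 0.0175, adjusted 0.139), did not pass.

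**Figure D5:**
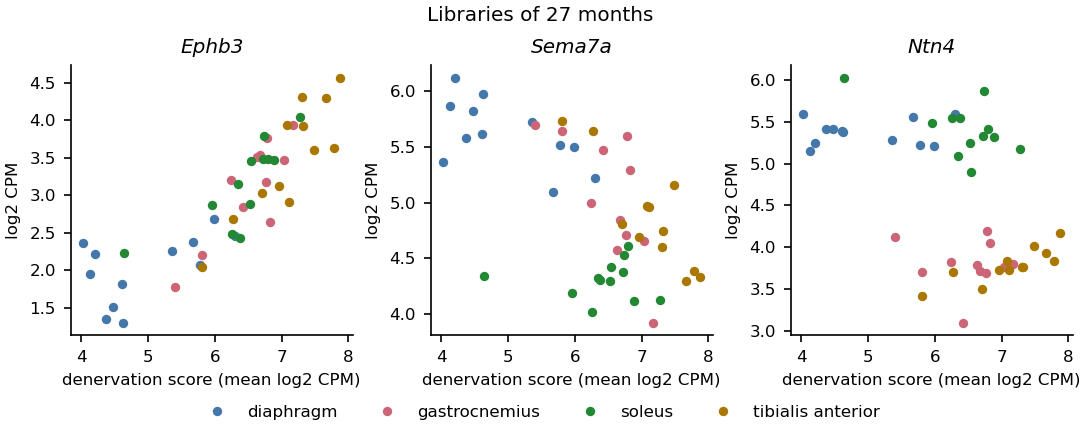
Log2 CPM of Ephb3, Sema7a and Ntn4 (panels) against the denervation score, the mean log2 CPM of 10 genes known to rise when fibres lose their nerve, in the 27-month libraries of the 4 muscles (colours). Ephb3 climbs with the score within the 3 limb muscles, Sema7a descends within the tibialis anterior, and Ntn4 climbs within the tibialis anterior at lower levels than in the diaphragm and soleus.

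Markers of other cell types moved as well, and their part in these changes was not tested. Their counts stand beside the shares of all genes called higher and lower at 27 months given above. Fast fibre markers are given since Unc5a and Sema7a were highest in the fast muscles at 6 months. They summed to 174000 to 209000 CPM at 6 months and 73000 to 152000 at 27 months in the gastrocnemius. In the tibialis anterior the sums were 197000 to 224000 and 70500 to 187000, and 3 of 8 were called lower in each of these muscles. In the soleus 7 of 8 rose. Endothelial markers, beside Nrp1, fell as a sum from 913 to 1030 CPM to 731 to 895 in the diaphragm (0 of 11 called), from 587 to 687 to 338 to 519 in the gastrocnemius (2 lower), from 664 to 762 to 490 to 636 in the soleus (1 lower) and from 743 to 859 to 513 to 763 in the tibialis anterior (2 lower). Macrophage markers rose in 10 of 10 in the gastrocnemius (sums of 169 to 272 and 291 to 524 CPM) and tibialis anterior (78.8 to 130 and 159 to 353). They were called higher in 1 of 10 in the diaphragm (218 to 433 and 342 to 779) and 2 of 10 in the soleus (260 to 497 and 425 to 589). Schwann cell markers were called higher in 6 and lower in 0 of 11 in the tibialis anterior (65.2 to 94.5 and 76.4 to 114 CPM), 5 and 2 in the gastrocnemius (76.0 to 144 and 75.2 to 95.1), 2 and 0 in the soleus (133 to 176 and 136 to 196) and in none in the diaphragm (111 to 207 and 116 to 192). No gene of these lists was at 0 in all 6-month libraries of a muscle.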

How the data were processed

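RNA was sequenced from whole muscle in strand-specific libraries after removal of ribosomal RNA. The authors deposited raw counts per gene, 1 file per library, made with the ArrayStudio pipeline on an older rat reference (B6.0) with an in-house gene model based on RefSeq, and the deposited counts are not normalized. Groups were read from the labels as muscle and age. The members and lists were chosen with earlier results of these data known. Genes were kept with filterByExpr (minimum count 10, minimum total count 15), and scaling was by TMM (edgeR 4.0.16). A limma-voom model in R 4.3.3, with limma 3.58.1, covered the 7 ages of 1 muscle and contrasted every later age to 6 months (two-sided tests). Muscles at 6 and 27 months, and differences in change, were compared in 1 fit of all 325 libraries. Levels are CPM, or log2 CPM with a prior count of 0.5. Fitted changes of members with few counts depend on that prior count. Trends were chosen among null, linear and logistic models by the Bayesian information criterion (margins 6 and 2, inflections before 12 months early and after 21 months late). Correlations used 100000 permutations. Named members were the 4 largest called rises and falls of each muscle, those called in 3 muscles, the largest differences between muscles, and a panel. Other members were named too, and those outside that rule were picked with their values in view. The test steps were checked on simulated counts. No 2 libraries were identical. Promoters were matched by symbol. Counting error limits members with few counts. One gene of the lists is not reported here by itself.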

Additional observations from a re-analysis of the deposited data

Results flagged for a closer look

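In the gastrocnemius, whose groups at 6, 21 and 24 months held 9 or 10 libraries and could be examined in this way, 4 of 75 groups of a named member and an age held a library apart from the rest, where chance gives about 1 in 20. These were Nrp1 at 21 months (lowest library 5.96 log2 CPM, the next 6.19), Ntn5 at 21 months (lowest -2.44, the next -1.34) and at 24 months (highest -0.17, the next -0.96), and Robo1 at 24 months (highest 3.12, the next 2.57).

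For 13 named members the change from 6 to 27 months differed between 2 muscles in the interaction contrast of limma-voom, and the largest difference of each is given as log2 with its adjusted p. Relative to the diaphragm, the tibialis anterior changed by 2.65 more for Ephb3 (adjusted p 4.16e-14), 1.38 for Slit2 (8.01e-13), 1.18 for Plxna3 (2.59e-14), 1.08 for Sema4f (1.85e-05) and 2.18 for Efna5 (0.000352), and by -3.04 for Unc5a (3.68e-07). Efna5 had at most 8 counts in the 6-month libraries of the tibialis anterior and 0 in 3 of them. Relative to the gastrocnemius, the soleus changed by 2.52 for Sema7a (2.19e-26), 0.64 for Sema3f (1.3e-06) and -1.41 for Ntn5 (0.000766), and the tibialis anterior by 1.11 for Sema3b (3.97e-09). Relative to the soleus, the tibialis anterior changed by 1.82 for Sema3a (3.83e-05) and -1.83 for Ephb1 (5.79e-05). Epha3 changed by 1.33 (0.00185) in the gastrocnemius relative to the diaphragm, and its median 6-month levels there were 0.263 and 2.16 CPM.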

How the results depend on the processing

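Of 193 counts recomputed under other settings, 142 stayed within 1.5 times. Where no share of all genes stands beside a count below, no result about the members is read from it. At 27 months the diaphragm, the gastrocnemius, the soleus and the tibialis anterior had 1, 7, 2 and 10 members past 2-fold, 4, 9 and 6 of the first 3 passed a Bonferroni adjustment, and a library axis taken from another muscle as a covariate gave 4 in the diaphragm, 2 of them among the 7 reported, and 2 in the gastrocnemius, both among the 15. That axis, the gene weights of the first component of the spread within ages, scored in each library and not held apart from age, turned Sema3a in the gastrocnemius to -0.70, the only called change of a named member that reversed, and left Ephb3 there at 0.07, Slit2 at 0.11 and Unc5a at -0.83. The cause was not tested. With that axis 11 members were called in the soleus, among them all 10 reported. In the tibialis anterior 18 were called, all among the 20 reported. Of 341 refits of 38 called changes of named members, 305 kept the call and 35 lost it. Total-count scaling ended the calls of Efna1 (-0.26) and Epha4 (-0.36) in the tibialis anterior, Sema5a in the gastrocnemius (-0.42) and tibialis anterior (-0.51) and Unc5c in the soleus (-0.69). Among 60 changes of named members without a call, 11 changed sign under at least 1 setting.

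Calls over the 4 muscles at 9 months were 2 with quality weights or the replicate block and 0 with Bonferroni. The 1 call at 12 months was lost with RLE size factors, total counts, no filter, the replicate block, Bonferroni or a 2-fold limit (0 each), and edgeR, DESeq2 and quality weights gave 2. At 18 months they were 8 with total counts, 2 with Bonferroni and 0 past 2-fold, at 21 months 5 and 2 with the latter settings, and at 24 months 10 past 2-fold. Differences in change passed Bonferroni for 8 members between diaphragm and gastrocnemius, 1 between diaphragm and soleus, 5 between gastrocnemius and soleus, 2 between gastrocnemius and tibialis anterior and 5 between soleus and tibialis anterior, and 2-fold for 8, 4, 6, 2 and 9. At 6 months 21, 13, 13, 3 and 16 members differed past 2-fold in the same pairs, 14 between diaphragm and soleus with Bonferroni, and 35 between gastrocnemius and soleus with total counts. Age-related members past 2-fold were 0 of 55, 6 of 52, 1 of 56 and 10 of 51 in the 4 muscles. Of all genes, 233 of 12035, 1115 of 11865, 633 of 12175 and 1474 of 11754 were age-related past 2-fold. Members related to the denervation score were 1, 2, 6 and 5 in the diaphragm, the gastrocnemius, the soleus and the tibialis anterior. With total counts they were 6, 13 and 16 in the last 3. The share of all genes related in this way was not computed, so no result about the members is read from these counts.

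Same-numbered libraries of a muscle at 6 months and another age had a median correlation of deviations of 0.01 (69 of 273 pairs over 0.1), beside 0.00 for other numbers, and were taken to share only a number. Between muscles at 1 age the medians were higher, 0.20 for diaphragm and tibialis anterior (60 of 83 pairs over 0.1), 0.18 for soleus and tibialis anterior (59 of 84), 0.13 for diaphragm and soleus (46 of 83) and 0.03 to 0.08 for the gastrocnemius with another muscle, beside -0.03 to -0.01 for other numbers. Same-numbered libraries of different muscles may thus share an animal, which the labels do not say. The fits across muscles took libraries as separate, so their SE and p values leave such pairing out. With the replicate block the number of members whose change differed moved by at most 2 in any pair of muscles (18 beside 16 for diaphragm and gastrocnemius). With the number as replicate block, the members called at 27 months were 7, 13, 10 and 19 from the diaphragm to the tibialis anterior.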

Other observations

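Further members ran with or against the denervation score among the 27-month libraries. Plxna2, a receptor part for class 3 semaphorins, ran against it in the diaphragm, with r of -0.869 (n = 12, permutation p 0.00032, adjusted 0.0171) and rho of -0.783 (permutation p 0.00385, adjusted 0.0829), and -0.771 without the 2 libraries farthest from the median score. In the tibialis anterior Sema3b gave r of 0.836 (n = 12, permutation p 0.00084, adjusted 0.0257) and rho of 0.790 (permutation p 0.00332, adjusted 0.0829), with 0.774 without the 2. Sema6c gave r of -0.801 there (n = 12, permutation p 0.00198, adjusted 0.0326) and rho of -0.818 (permutation p 0.00204, adjusted 0.0728), with -0.819 without the 2. Slit1 in the soleus was called lower at 24 months (-1.43, SE 0.50, adjusted p 0.0208 in limma-voom), at medians of 0.762 CPM at 6 months and 0.369 at 24 months, with 2 libraries at 0.

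The remaining lists of cell types changed as follows from 6 to 27 months in the diaphragm, the gastrocnemius, the soleus and the tibialis anterior. The shares of all genes called higher and lower in these muscles are given above. Adipocyte markers rose in 0, 7, 7 and 7 of 8, and 1 fell in the diaphragm. T cell markers rose in 3 of 6, 3 of 4, 3 of 4 and 4 of 4 tested. Satellite cell markers rose in 1, 2, 3 and 2 of 7, with 1 (Cdh15, -0.595) lower in the tibialis anterior. The medians of this list were -0.09, 0.17, -0.05 and 0.38. Myf5, a myogenic factor of these cells, rose by 2.35 (SE 0.19) in the gastrocnemius, 0.74 (SE 0.14) in the soleus and 2.41 (SE 0.24) in the tibialis anterior. Fibroblast markers rose in 0, 1, 1 and 3 of 10 and fell in 4, 2, 2 and 0, and the medians of this list were -0.47, 0.14, 0.2 and 0.29. Col1a1, a fibrillar collagen chain, changed by -1.51, -1.89 and -1.17 in the first 3. Pi16 rose in the gastrocnemius (0.71) and tibialis anterior (1.32), and Fbln1 in the soleus (0.77) and tibialis anterior (1.26). Smooth muscle and pericyte markers rose in 0, 1, 0 and 1 of 8 and fell in 1, 2, 2 and 2. Tendon markers rose in 0, 0, 1 and 2 of 5 and fell in 1, 2, 1 and 1. Slow fibre markers rose in none of 7 and fell in 0, 0, 1 and 2.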
